A study of Mus musculus with 6 samples.

Results

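The liver takes bile acids and other organic anions out of portal blood across the sinusoidal membrane of the hepatocyte and pumps bile acids, phospholipid, sterols and conjugates into bile across the canalicular membrane. Here 10 transporter genes of these steps were followed in the liver of pregnant mice. They were chosen by gene symbol, as genes with a known place in uptake from blood or export into bile or blood, and not by a rule on their values. Earlier results of these data were known when they were chosen. They are 10 of the 56691 gene rows of the table. Of these, 4 encode sinusoidal uptake carriers (Slc10a1 or NTCP, Slco1a1, Slco1a4 and Slco1b2), 1 encodes a sinusoidal export pump (Abcc3 or MRP3) and 5 encode canalicular export pumps (Abcb11 or BSEP, Abcb4 or MDR2, Abcc2 or MRP2, and Abcg5 and Abcg8, which work as a pair). All 10 passed the minimum mean FPKM of 1 that was set for testing.

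Liver poly(A) RNA was sequenced from 3 KPF dams (replicates 1, 2 and 3) and 3 WPF dams (replicates 2, 3 and 4). KPF dams carried floxed Chrebp alleles and Cre under the albumin promoter (hChrebp KO), so that the gene is cut in hepatocytes, while WPF dams were Cre-negative Chrebp flox/flox by the study's methods and WT by the sample labels. All dams were on the C57BL/6J background, were mated with Chrebp flox/flox males on Day 0, and were fed a high-fructose diet (HFrD, with 70% fructose and fat at 10 kcal%) until the liver was taken on Day 17. Whether HFrD itself moves these genes cannot be read from the 2 groups, since both were fed it. Age is not given in the labels.

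In mouse liver, NTCP carries conjugated bile acids into the hepatocyte with sodium, and the OATP carriers of the Slco family take up unconjugated bile acids, bilirubin and many drugs without it. BSEP is the main pump for bile salts at the canaliculus, MDR2 moves phosphatidylcholine to the outer leaflet, MRP2 exports bilirubin and glutathione conjugates, and ABCG5 with ABCG8 exports cholesterol. The nuclear receptor FXR (Nr1h4) senses bile acids and raises Abcb11 in textbook accounts, binding to an inverted repeat of its core site AGGTCA with 1 base between.

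Reference promoters of 4 of the genes are shown, 2 for a repeat that few promoters hold and 2 because the genes share them. A window of 250 bases before to 50 bases after each start was read from RefSeq (GRCm38.p6), and 9 of the 10 genes had at least 1 window (11 windows in all, none for Abcc3). The first pair of windows holds AGGTCA, any base, then TGACCT with at most 1 mismatch on either strand, shown in capitals. The Abcb11 window lies at chr2:69342567-69342866 on the minus strand, and the Slco1b2 window at chr6:141629268-141629567 on the plus strand.
Abcb11: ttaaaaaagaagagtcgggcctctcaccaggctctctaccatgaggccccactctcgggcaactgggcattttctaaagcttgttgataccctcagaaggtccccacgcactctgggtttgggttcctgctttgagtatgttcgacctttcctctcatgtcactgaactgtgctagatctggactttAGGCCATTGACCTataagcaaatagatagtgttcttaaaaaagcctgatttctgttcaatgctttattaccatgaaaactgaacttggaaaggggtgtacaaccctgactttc
Slco1b2: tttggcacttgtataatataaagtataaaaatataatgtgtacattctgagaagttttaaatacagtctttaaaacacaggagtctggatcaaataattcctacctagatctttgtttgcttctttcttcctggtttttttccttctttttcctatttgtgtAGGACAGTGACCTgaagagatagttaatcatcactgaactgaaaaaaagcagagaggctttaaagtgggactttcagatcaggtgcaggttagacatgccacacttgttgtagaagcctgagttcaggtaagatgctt
The match begins 63 bases before the start site in Abcb11 and 88 bases before it in Slco1b2. It was found in 27 of 32851 windows of the reference (0.0822%), these 2 among them. AGGTCA alone, on either strand, was present in 16.3% of all windows and in 5 of the 11 windows of these genes (Abcb11, Abcc2, Slc10a1, Slco1a1 and Slco1b2), and in Abcb11 and Slco1b2 it is part of the repeat in capitals.

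Abcg5 and Abcg8 lie head to head on chromosome 17, and 1 start site of Abcg8 is 109 bases from that of Abcg5 in the reference. The windows of these starts share 209 bases at chr17:84682962-84683170 (GRCm38.p6, plus strand, the strand of Abcg8). The capitals mark AGATAA, the GATA factor motif, on either strand.
Abcg5 and Abcg8: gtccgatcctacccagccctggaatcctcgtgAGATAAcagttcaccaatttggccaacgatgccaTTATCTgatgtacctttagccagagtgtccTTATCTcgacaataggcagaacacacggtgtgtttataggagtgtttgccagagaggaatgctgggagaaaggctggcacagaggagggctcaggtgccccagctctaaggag
The motif occurs 3 times in this stretch, and 11.2% of all windows hold it at least once. Another start of Abcg8 has its window at chr17:84676052-84676351 (plus strand), outside this stretch, and the motif was not found there. CACGTG, the core of the E-boxes to which ChREBP binds, was in 7.15% of all windows and in 0 of the 11 windows of these genes. These are matches of letters in 1 window per start and say nothing of binding or of other sites.

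The libraries held 10694496 to 14496630 counted reads, and the largest of the KPF group was still below the smallest of the WPF group. The values below are CPM (counts per gene brought to a shared library size, with TMM scaling), or FPKM (the same share of reads per kilobase of exonic length, without TMM scaling) where genes are compared with each other. Mlxipl, the gene of ChREBP, was at 182, 709 and 860 CPM in KPF dams and at 974, 1277 and 891 CPM in WPF dams, with no overlap but a log2 fold change of -0.84 (edgeR's quasi-likelihood test, standard error 0.53, adjusted p = 0.584). The counts cover the whole gene and need not show the deletion of an exon. KPF replicate 2 stands apart: 8 striated muscle genes, a list added after the values were seen, summed to 3751 CPM there and to 5.52 to 13.9 CPM in the other 5 libraries. Of 7 stellate cell and fibroblast markers, 4 (Reln, Col1a1, Col3a1 and Des, which muscle also expresses) met the call rule given below as higher in KPF. Over all tested genes 9.81% met it, 5.83% as higher. Dcn (log2 fold change 0.80) and Pdgfrb (0.55) were higher but not called, and Lrat was lower (-0.35). The list summed to 160 to 666 CPM in KPF against 95.9 to 121 CPM in WPF dams, and Des alone was at 493 CPM in KPF replicate 2. Hepatocyte markers were abundant in all libraries, with sums of 81223 to 107669 CPM in KPF and 105008 to 174130 CPM in WPF dams. Most of this was Alb, at 65832 to 91390 and 90628 to 150690 CPM, and 0 of the 8 markers met the rule. The 8 cholangiocyte markers summed to 37.9 to 42.4 CPM in KPF and 32.9 to 60.2 CPM in WPF dams, with Spp1 the largest part (18.6 to 23.7 and 20.7 to 46.5 CPM). The 6 Kupffer cell markers summed to 118 to 184 and 133 to 239 CPM, of which Clec4f was 78.9 to 127 and 73.5 to 138 CPM. The 6 sinusoidal endothelial markers summed to 132 to 252 and 136 to 172 CPM, and among these 3 lists only Pecam1, an endothelial marker, met the rule, as higher. The 4 markers of attached gut or kidney summed to 13.1 to 34.6 and 24.1 to 28.1 CPM. Nearly all of this was Fabp2 (12.8 to 34.1 and 23.8 to 27.7 CPM). Vil1 was at most at 0.676 CPM, Slc5a2 at most at 0.0974 CPM and Umod at 0. The part of tissue composition and of library size in the results below was not tested, and in bulk liver fewer cells of a type and less RNA per cell cannot be told apart. Fold changes of the transporters are given with and without KPF replicate 2, and that of Mlxipl was -1.02 without it.

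By mean FPKM over the 6 libraries, Abcb11 was the most abundant of the transporters at 129 FPKM, followed by Slco1b2 at 63.4, Abcg5 at 59.8, Abcc2 at 44.9 and Slc10a1 at 38.9 FPKM. Slco1a4 was at 15.5, Abcb4 at 13.5, Slco1a1 at 12.3, Abcg8 at 10.8 and Abcc3 at 6.82 FPKM. The library ranges of all 9 pairs of neighbours in this order overlapped. Abcb11 was the highest of the 10 in 5 of 6 libraries, whereas in KPF replicate 2 Abcg5 led with 148 FPKM and Slco1b2 followed with 112. Abcc3, which returns conjugates to blood and is low in healthy liver, was the lowest of the 10 in 5 of 6 libraries. The uptake carriers summed to 77.6, 202 and 87.7 FPKM in KPF and to 134, 114 and 164 FPKM in WPF. The canalicular pumps summed to 155, 316 and 179 FPKM in KPF and to 291, 285 and 320 FPKM in WPF, so that KPF replicate 2 was at the WPF level while the other 2 KPF libraries were below all WPF libraries. Of the sum in KPF replicate 2, Abcg5 made up 148 FPKM. Abcb11 was at 89.7 FPKM there, below its 133 to 193 FPKM in WPF. Both sets of sums are without TMM scaling.

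KPF was compared with WPF to ask whether loss of hepatocyte ChREBP goes with a change in these transporters. A gene was called where edgeR's unadjusted p was under 0.05 and the change was at least 1.5-fold. By this rule 1 of the 10 transporters was called, Abcb11, and it was lower in KPF. Over all 10866 tested genes 9.81% were called, 5.83% as higher and 3.98% as lower, so 1 of 10 is the background share. After Benjamini-Hochberg adjustment 0% of the genes were called, although 1176 genes had an unadjusted p under 0.05 and DESeq2 called 156 at an adjusted p under 0.05. The adjusted p of the transporters ran from 0.443 to 0.964. The median log2 fold change was 0.08 for the transporters, 6 higher and 4 lower in KPF, and 0.02 over all tested genes. The 2 groups overlapped for each of the 10 transporters, whereas 15.7% of all tested genes did not overlap. With 3 dams against 3, an exact two-sided permutation test cannot go below p = 0.1.

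**Figure D1:**
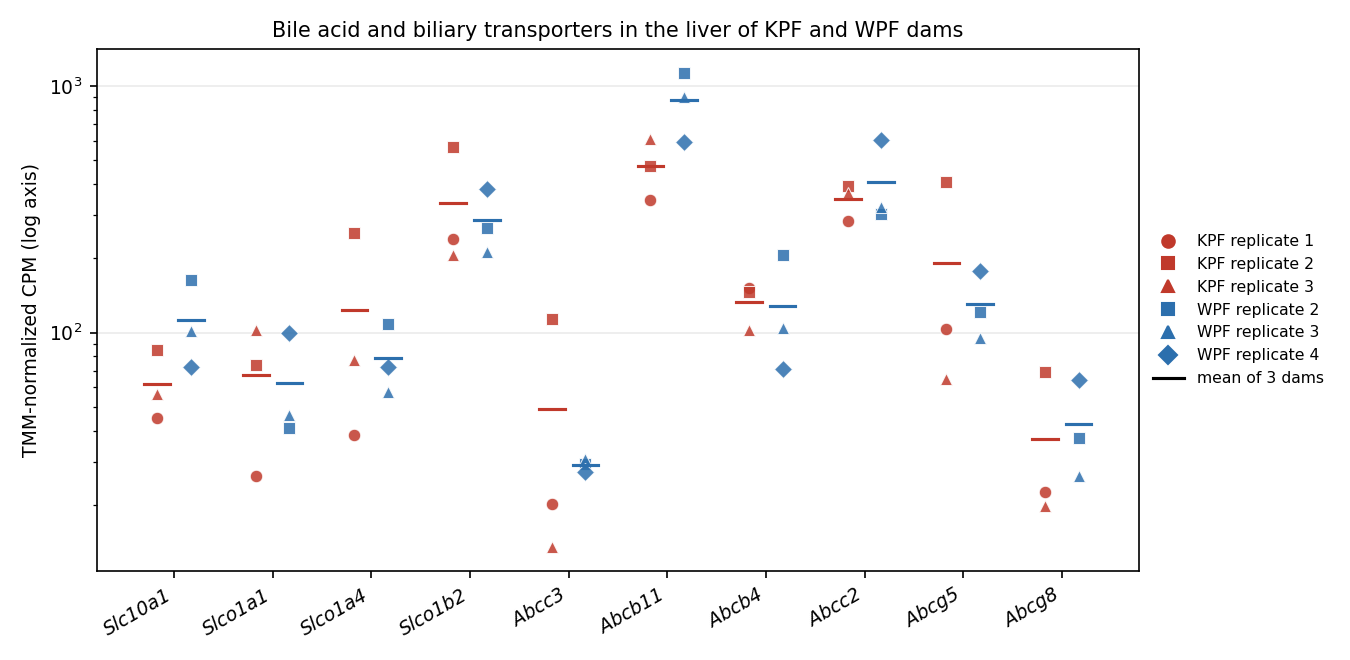
Normalized level of each transporter (x axis) in each library, in TMM-normalized CPM on a log axis, with KPF in red, WPF in blue, 1 symbol per replicate and a bar at the mean of 3 dams. KPF replicate 2 (red square) lies above all other libraries for Slco1a4, Slco1b2, Abcc3, Abcg5 and Abcg8, and Abcb11 is the one gene that met the call rule.

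Abcb11 (ENSMUSG00000027048, chr2:69068626-69172960 in GRCm39, minus strand), the bile salt export pump, was at 344, 471 and 608 CPM in KPF dams (replicates 1, 2 and 3, the order kept below) and at 1127, 903 and 591 CPM in WPF dams (replicates 2, 3 and 4). The groups met only where KPF replicate 3 passed WPF replicate 4. Its mean was 474 ± 132 CPM in KPF and 874 ± 269 CPM in WPF (SD, n = 3 each), and 86.4 against 171 FPKM. The log2 fold change was -0.88 (standard error 0.35, 95% interval -1.69 to -0.08), that is 1.84-fold lower in KPF. By edgeR the unadjusted p was 0.0354 and the adjusted p was 0.443, and the exact permutation p was 0.2. The call did not hold when KPF replicate 1 (-0.69), KPF replicate 2 (-0.89), WPF replicate 2 (-0.66) or WPF replicate 3 (-0.86) was left out. The direction was lower in KPF under each of the 15 alternatives run.

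Slc10a1 (ENSMUSG00000021135, chr12:80999957-81015479 in GRCm39, minus strand), the sodium-dependent uptake carrier for bile acids, had a fold change close to that of Abcb11. It was at 45.0, 84.9 and 56.5 CPM in KPF dams and at 163, 101 and 72.6 CPM in WPF dams. Again WPF replicate 4 was the lowest of its group, and KPF replicate 2 lay above it. The log2 fold change was -0.85 (95% interval -1.72 to 0.02, edgeR unadjusted p = 0.0534, adjusted p = 0.464, exact permutation p = 0.2), just outside the rule. It met the rule in 9 of 15 alternatives, among them DESeq2 (-0.84), library totals in place of TMM (-0.92), and the fits without KPF replicate 2 (-1.15) or without WPF replicate 4 (-1.09). It missed the rule without KPF replicate 1 (-0.66), KPF replicate 3 (-0.79), WPF replicate 2 (-0.48) or WPF replicate 3 (-0.93).

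The 3 OATP genes lie close together on chromosome 6, and none of them met the call rule. Slco1b2 (OATP1B2, chr6:141575244-141632372 in GRCm39), the carrier of unconjugated bile acids and bilirubin, was at 240, 563 and 206 CPM in KPF dams and at 266, 212 and 383 CPM in WPF dams. KPF replicate 2 was the highest library and KPF replicate 3 the lowest, so the KPF dams spanned the whole range. The log2 fold change was 0.23 (95% interval -0.80 to 1.25, edgeR adjusted p = 0.862), and -0.37 without KPF replicate 2. Slco1a4 (OATP1A4, chr6:141751166-141801925) was at 38.3, 254 and 77.3 CPM in KPF dams and at 108, 57.2 and 72.5 CPM in WPF dams. KPF replicate 2 was far above the other 5 libraries, and the log2 fold change of 0.64 (95% interval -0.86 to 2.13, edgeR adjusted p = 0.735) became -0.46 without that library. Slco1a1 (OATP1A1, chr6:141853008-141892688), which in mice is known for its dependence on sex hormones, was at 26.2, 74.0 and 102 CPM in KPF dams and at 41.2, 46.2 and 100 CPM in WPF dams. One library of each group was near 100 CPM, and the log2 fold change was 0.10 (95% interval -1.14 to 1.34, edgeR adjusted p = 0.954), with the sign turning to -0.10 under library totals and a value of 0.02 without KPF replicate 2. The intervals of these 3 genes reach past a 1.5-fold change in both directions.

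Abcc3 (MRP3, chr11:94234121-94283823 in GRCm39, minus strand), the export pump toward blood, was at 20.2, 113 and 13.5 CPM in KPF dams and at 29.2, 30.6 and 27.3 CPM in WPF dams. The WPF dams were tightly grouped, with a coefficient of variation of 5.73%, while that of the KPF dams was 114%, and KPF held both the highest and the lowest library. KPF against WPF gave a log2 fold change of 0.76 (95% interval -0.92 to 2.44, edgeR adjusted p = 0.719). Without KPF replicate 2 it was -0.79 and met the call rule as lower in KPF. This gene had the widest spread of the 10, 8.38-fold from the lowest to the highest library.

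Among the other canalicular pumps, Abcc2 (MRP2, chr19:43770631-43829179 in GRCm39) was the steadiest, with 283, 393 and 369 CPM in KPF and 301, 322 and 602 CPM in WPF dams. WPF replicate 4 alone was high, and the log2 fold change was -0.23 (95% interval -1.02 to 0.56, edgeR adjusted p = 0.819), turning to 0.15 without WPF replicate 4 and staying at -0.33 without KPF replicate 2. Abcb4 (MDR2, chr5:8943717-9009231), the phospholipid floppase, was at 152, 146 and 102 CPM in KPF dams and at 207, 104 and 71.5 CPM in WPF dams. The KPF values lay inside the WPF range, and the log2 fold change was 0.06 (95% interval -0.89 to 1.01, edgeR adjusted p = 0.964) and -0.01 without KPF replicate 2.

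Abcg5 (chr17:84965662-84990439, minus strand) and Abcg8 (chr17:84983730-85007761, plus strand, both GRCm39) encode the 2 subunits of the sterol exporter. Their extents from start to end overlap by 6710 bases on opposite strands, and how much of this is exonic was not counted. No strand setting is stated for the counting, so how reads there were treated is not known. Abcg5 was at 103, 409 and 65.0 CPM in KPF dams and at 121, 95.3 and 178 CPM in WPF dams. Abcg8 was at 22.6, 69.0 and 19.8 CPM in KPF dams and at 37.5, 26.3 and 64.3 CPM in WPF dams. In both genes KPF replicate 2 was the highest, WPF replicate 4 the next and KPF replicate 3 the lowest. The log2 fold change of Abcg5 was 0.55 (95% interval -0.97 to 2.07, edgeR adjusted p = 0.774) and that of Abcg8 was -0.20 (95% interval -1.45 to 1.05, edgeR adjusted p = 0.904). Without KPF replicate 2 they were -0.64 for Abcg5, which missed the rule, and -1.01 for Abcg8, which then met it. Per length, Abcg8 stood at 0.158, 0.122 and 0.22 of Abcg5 in KPF and at 0.225, 0.2 and 0.262 in WPF. The group ranges of this ratio overlap (exact permutation p = 0.2).

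**Figure D2:**
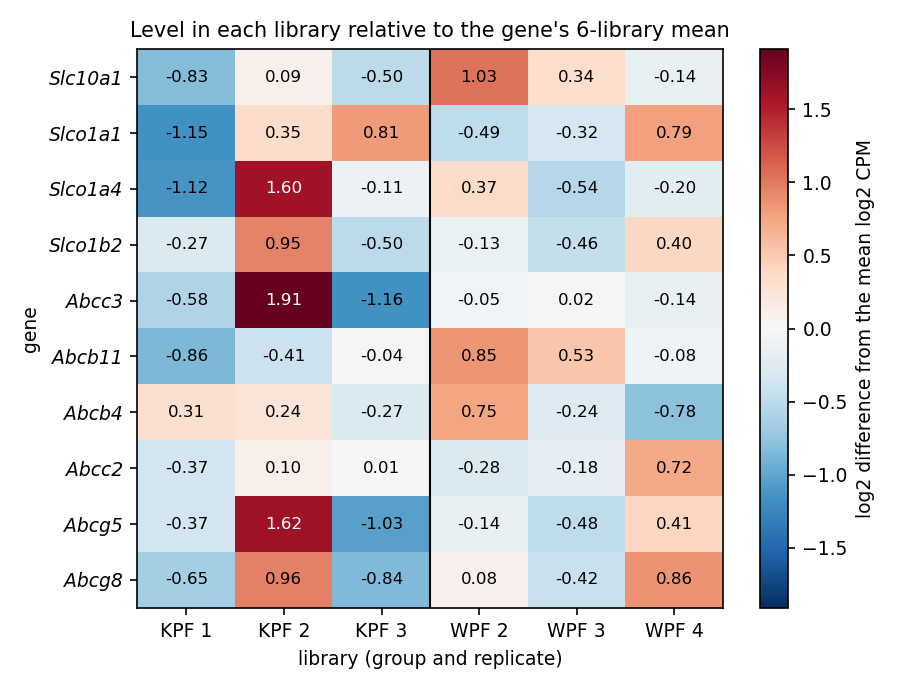
Level of each transporter (rows) in each library (columns, KPF left of the line), as the log2 difference from the gene's mean log2 CPM over the 6 libraries. The KPF replicate 2 column holds the highest values, 1.91 for Abcc3, 1.62 for Abcg5 and 1.60 for Slco1a4, while Abcb11 is at -0.41 in the same library.

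The spread between dams was wide for these genes. The median ratio of the highest to the lowest library was 3.56 for the transporters and 2.03 over all tested genes, from 2.12 for Abcc2 to 8.38 for Abcc3. KPF replicate 2 was the highest library for 5 of the 10 (Slco1a4, Slco1b2, Abcc3, Abcg5 and Abcg8) and for 19.3% of all tested genes. KPF replicate 1 was the lowest for 5 of the 10 (Slc10a1, Slco1a1, Slco1a4, Abcb11 and Abcc2) and for 23.3% of all tested genes. KPF replicate 3 was the lowest for Slco1b2, Abcc3, Abcg5 and Abcg8. Without KPF replicate 2, a setting looked at because that library stands apart, 9 of 10 transporters were lower in KPF, with a median log2 fold change of -0.55 beside -0.01 over all tested genes. Then 3 of 10 were called, Slc10a1, Abcc3 and Abcg8, all as lower, beside 9.51% of all tested genes. Abcb11 was not among them. As KPF replicate 2 was the highest library for 5 of the 10, leaving it out lowers their KPF means by construction. These counts are therefore no independent support for a decrease. Without KPF replicate 1, and likewise without KPF replicate 3, 4 of 10 were lower and 6 higher. The number lower was 5 without WPF replicate 2, 6 without WPF replicate 3 and 3 without WPF replicate 4. Without WPF replicate 4, 2 of 10 were called, Abcb11 and Slc10a1, beside 10.7% of all tested genes. That library was the lowest of the WPF group for both genes, so leaving it out raises their WPF means by construction.

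**Figure D3:**
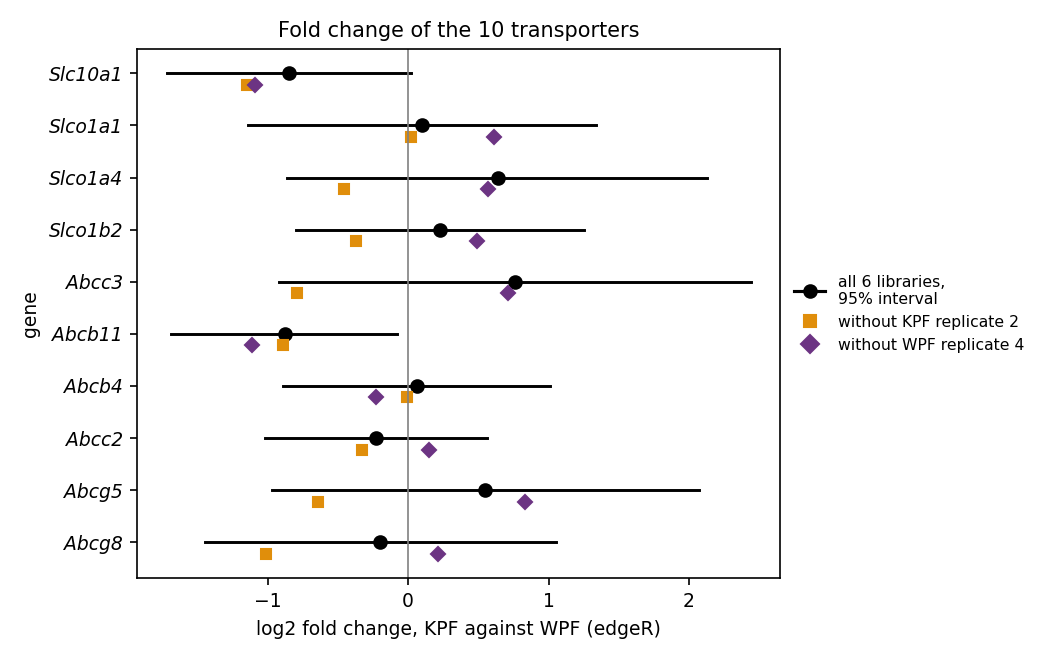
The x axis gives the log2 fold change of KPF against WPF for each transporter from edgeR, with the 95% interval over all 6 libraries (black) and the estimate without KPF replicate 2 (orange square) or without WPF replicate 4 (purple diamond). Only the interval of Abcb11 (-1.69 to -0.08) leaves out 0, and the estimates of Slco1a4, Slco1b2, Abcc3 and Abcg5, and by a small step that of Abcb4 (0.06 to -0.01), change sign without KPF replicate 2.

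Ratios within a library do not depend on how libraries are scaled. Abcb4 relative to Abcb11, phospholipid against bile salt export, was at 0.243, 0.17 and 0.0919 in KPF and at 0.101, 0.0632 and 0.0664 in WPF on the FPKM scale. KPF replicate 3 fell inside the WPF range, and the log2 difference of 1.05 had an exact permutation p of 0.2. Slco1a4 to Slco1a1 ran from 0.594 to 2.82 (exact permutation p = 0.7) and Abcc3 to Abcc2 from 0.0549 to 0.433 (exact permutation p = 0.9). Without KPF replicate 2 the log2 differences went from 0.23 to -0.33 for Slco1a4 to Slco1a1 and from 0.28 to -0.55 for Abcc3 to Abcc2, and were 0.99 for Abcb4 to Abcb11 and -0.29 for Abcg8 to Abcg5. All 4 ratios tested overlapped between the groups, and after Benjamini-Hochberg adjustment over the 4 the smallest exact permutation p was 0.4.

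Other genes of the pathway were taken from 5 lists. Of 10 other basolateral carriers, 6 were tested and 0 were called, with a median log2 fold change of -0.08. Abcc6, an ATP release pump of hepatocytes, was at 173, 335 and 217 CPM against 222, 201 and 261 CPM (0.08, edgeR adjusted p = 0.933).

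Of 10 other canalicular proteins, 7 were tested, 2 were called lower and 0 higher, beside 3.98% lower and 5.83% higher of all tested genes. Aqp8, a water channel of the canaliculus, was at 30.3, 20.8 and 44.2 CPM in KPF dams and at 210, 215 and 41.7 CPM in WPF dams. WPF replicate 4 lay among the KPF dams, as it did for Abcb11 and Slc10a1. Its log2 fold change was -2.29 (95% interval -3.72 to -0.86, edgeR adjusted p = 0.43, exact permutation p = 0.2). Aqp8 met the call rule in all 15 alternatives. Atp8b1, the flippase whose loss causes cholestasis in people, was at 21.3, 14.0 and 13.4 CPM against 27.1, 26.7 and 23.0 CPM, with no overlap and a log2 fold change of -0.66 (edgeR adjusted p = 0.43, exact permutation p = 0.1). The call was lost when KPF replicate 2 (-0.56), KPF replicate 3 (-0.54), WPF replicate 2 (-0.62) or WPF replicate 3 (-0.63) was left out.

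Of 10 genes for anchoring and trafficking of canalicular pumps, 9 were tested and 0 were called. Rdx, radixin, which holds MRP2 at the canaliculus, was at 87.7, 77.3 and 93.2 CPM in KPF and 75.6, 85.2 and 69.3 CPM in WPF dams. Slc9a3r1, a scaffold protein, was at 82.8, 162 and 84.4 CPM against 54.5, 49.8 and 106 CPM (log2 fold change 0.65, edgeR adjusted p = 0.581). Its value was 0.25 without KPF replicate 2, the highest KPF library. It was 1.06, past the call rule, without WPF replicate 4, the highest WPF library.

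Of 16 nuclear receptors and regulators, 15 were tested, 2 were called higher and 1 lower, beside 5.83% higher and 3.98% lower of all tested genes. Gpbar1 had no read in any library. Nr1h4, the gene of FXR, was at 219, 313 and 210 CPM in KPF dams and at 138, 174 and 170 CPM in WPF dams. Every KPF library was above every WPF library, with a log2 fold change of 0.62 (95% interval 0.01 to 1.23, edgeR adjusted p = 0.456, exact permutation p = 0.1). This call was lost in 10 of 15 alternatives, and the value was 0.41 without KPF replicate 2, 0.52 without WPF replicate 2, 0.68 without WPF replicate 3 and 0.66 without WPF replicate 4. Esr1, the estrogen receptor, was at 28.6, 61.9 and 33.8 CPM against 19.5, 28.1 and 24.8 CPM (log2 fold change 0.78, edgeR adjusted p = 0.456). Its call was lost in 8 of 14 alternatives, among them library totals (0.64), both limma fits (0.41 and 0.56) and the fits without KPF replicate 2 (0.36), WPF replicate 2 (0.64), WPF replicate 3 (0.90) or WPF replicate 4 (0.79). Nfe2l2, the gene of NRF2, a regulator of MRP pumps, was lower at 33.0, 91.1 and 126 CPM against 159, 309 and 145 CPM (log2 fold change -1.29, edgeR adjusted p = 0.45). That call was lost without KPF replicate 1 (-0.91), KPF replicate 2 (-1.37) or WPF replicate 3 (-0.87). Nr0b2, the gene of SHP and a classic FXR target, was at 7.05, 36.2 and 5.84 CPM in KPF dams and at 16.4, 20.4 and 15.3 CPM in WPF dams. It had the pattern of Abcc3, with KPF replicate 2 above and the other 2 KPF dams below all WPF dams. Its log2 fold change was -0.08 (95% interval -1.60 to 1.43, edgeR adjusted p = 0.97), and -1.43 without KPF replicate 2, which met the call rule. Nr1i3, the gene of the drug receptor CAR, was named after its values were seen: it was at 552, 963 and 120 CPM in KPF dams and at 222, 90.3 and 271 CPM in WPF (1.49, edgeR adjusted p = 0.496). KPF replicate 2 was its highest library, as for 19.3% of all tested genes, and KPF replicate 1 the next.

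Of 14 genes of bile acid synthesis and conjugation, 13 were tested, 1 was called lower and 0 higher, beside 3.98% lower and 5.83% higher of all tested genes. Cyp39a1, an oxysterol 7-alpha-hydroxylase, was at 3.77, 7.35 and 4.58 CPM in KPF and 15.8, 9.47 and 10.4 CPM in WPF dams, with no overlap (log2 fold change -1.18, 95% interval -1.99 to -0.37, edgeR adjusted p = 0.43, exact permutation p = 0.1), and it was -1.51 without KPF replicate 2. Cyp7a1, the rate-limiting enzyme of bile acid synthesis, was at 30.1, 109 and 175 CPM against 14.3, 11.5 and 155 CPM. WPF replicate 4 stood with the KPF dams. The estimate was a log2 fold change of 0.79 (95% interval -1.63 to 3.21, edgeR adjusted p = 0.797) with all libraries, 0.76 without KPF replicate 2 and 3.02, past the call rule, without WPF replicate 4. Leaving out WPF replicate 4, the highest of its group, lowers the WPF mean by construction. Over the 5 lists, 6 of 50 tested genes were called, 2 higher and 4 lower, near the 9.81% of all tested genes. Without KPF replicate 2, 3 were called, beside 9.51% of all tested genes.

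**Figure D4:**
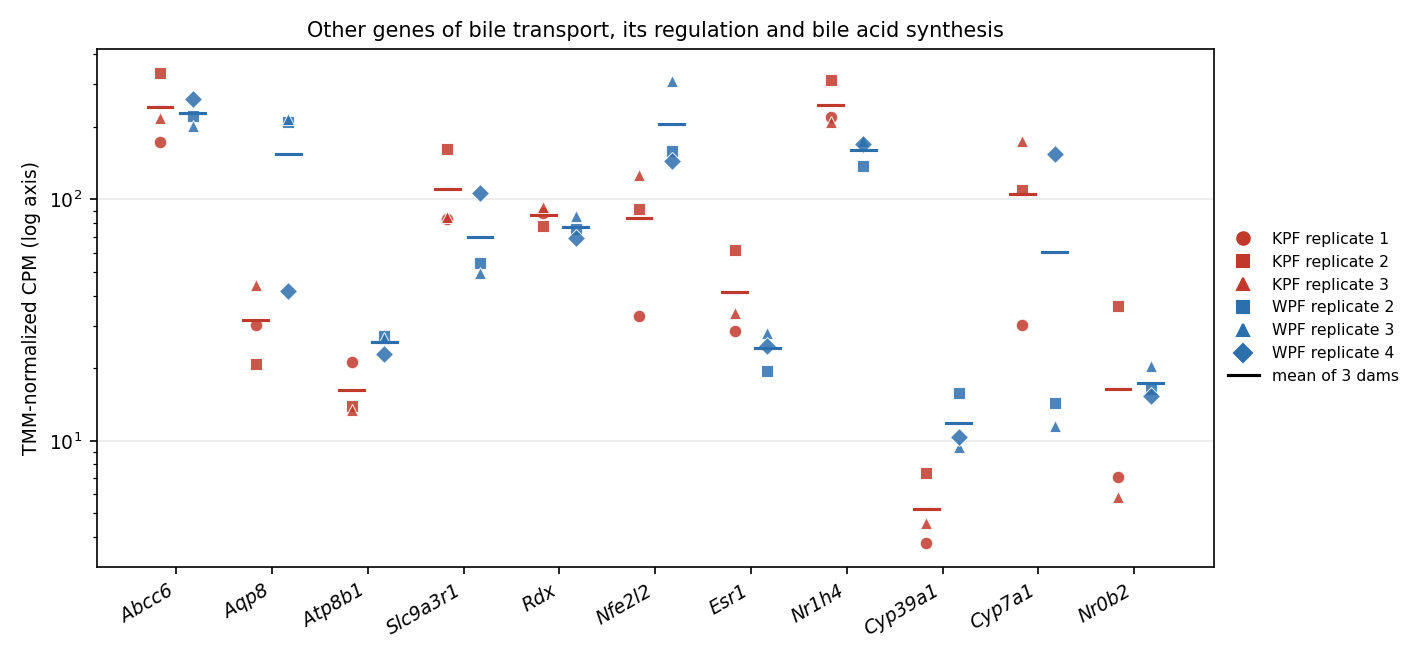
TMM-normalized CPM (log axis) of the 11 named pathway genes in each library, with KPF in red, WPF in blue and a bar at the mean of 3 dams. Aqp8 is at 210 and 215 CPM in WPF replicates 2 and 3 but at 41.7 CPM in WPF replicate 4, and Nr1h4 is at 210 CPM or more in all KPF libraries and at 174 CPM or less in all WPF libraries.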

How the data were processed

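Per the file headers, the authors deposited read counts per gene and FPKM values for 6 liver libraries, with gene coordinates and exonic lengths. Libraries were poly(A) RNA read as pairs of 150 bases. The submitters' processing notes name cutadapt 1.9.1, HISAT2 2.2.1, HTSeq 0.6.1, DESeq2 and GRCm39. All deposited FPKM values (100%) equal the count divided by exonic length and by the total of counted reads, within 0.0051. Symbols come from GENCODE M21 (52073 of 56691 gene IDs matched). GRCm38.p6 windows were not combined with the table's coordinates.

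Counts of the 10866 genes whose mean FPKM reached 1 were normalized by TMM (factors 0.887797 to 1.18031) and tested by edgeR 4.0.16 (R 4.3.3) quasi-likelihood, KPF against WPF, with Benjamini-Hochberg adjustment over all tested genes and no covariate. Called genes had an unadjusted p under 0.05 together with a fold change of 1.5 or more. Genes under the FPKM minimum have no adjusted p. Exact two-sided permutation tests were run on log2(CPM + 1) for each member, pathway list gene, marker and Mlxipl, and on the log2 of each ratio. The alternatives were DESeq2 1.42.0 and its size factors, library totals, other filters, limma 3.58.1 on log2 of FPKM plus 1 or 0.1, leaving out each library, and a replicate block. Scripts were tested on simulated counts. Replicates of 1 group differed beyond sampling noise. No sequencing batch is given, so none could be separated from group. The labels number the libraries without naming animals, so p-values measure the spread between these samples. Named genes are the 10 members, Mlxipl, called members of the pathway lists (up to 5 a list) or otherwise the 2 most abundant of a list, and Cyp7a1, Nr1h4 and Nr0b2. A gene that this rule also names is not reported here. The members and lists were chosen with earlier results of these data known.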

Additional observations from a re-analysis of the deposited data

How the results depend on the processing

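Of 22 single-gene fold changes, 4 kept their direction and their side of the call rule under every alternative run. Genes called higher in KPF (634) were 371 under library totals, 1576 without a filter, 255 at a minimum FPKM of 5, and 237 and 288 with limma (pseudocounts 1 and 0.1). Genes called lower (432) were 716, 910, 205 and, with limma at 0.1, 700. The share of calls that were higher was 59.5% with TMM, 34.1% under library totals, and 30.5% and 29.1% with limma; library totals shifted the median of all genes to -0.12. At an adjusted p under 0.05, 286 genes were called without a filter. Transporters called (1) were 2 under library totals, no filter, edgeR's filterByExpr, DESeq2 and both limma fits, where Slc10a1 (-0.92, -0.92, -0.88, -0.84, -0.92 and -0.94) joined, and 0 at an adjusted p under 0.05, a rule added after seeing the data. Pathway genes called (6) were 3 at a minimum FPKM of 5. Signs turned for Slco1a1 (-0.10 under library totals, -0.09 and -0.11 with limma), Slco1b2 (-0.0021 and -0.0035 with limma), Abcb4 (-0.01 without a filter) and Abcc6 (-0.05, -0.09 and -0.09 under the same settings as Slco1a1). Why the values moved was not tested.

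Leaving out each library in turn gave 331 to 922 genes higher, 245 to 712 lower, 0 to 3 transporters called, 2 to 10 pathway genes called and a transporter median of -0.55 to 0.35. The log2 fold changes ran from -1.15 to -0.48 for Slc10a1, -0.33 to 0.61 for Slco1a1, -0.46 to 1.07 for Slco1a4, -0.37 to 0.49 for Slco1b2, -0.79 to 1.20 for Abcc3, -1.11 to -0.66 for Abcb11, -0.23 to 0.60 for Abcb4, -0.41 to 0.15 for Abcc2, -0.64 to 0.96 for Abcg5, -1.01 to 0.21 for Abcg8, -0.23 to 0.28 for Abcc6 and -1.43 to 0.32 for Nr0b2.

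Replicate numbers 2 and 3 occur in both groups but stand for different dams. Deviations of same-numbered libraries correlated at 0.035 and -1.86e-05, within the -0.196 to 0.149 of pairs with unlike numbers. The labels do not say what the numbers stand for. These correlations cannot tell whether same-numbered libraries share a day or a run. With a replicate block, in which only these 4 libraries inform the contrast, 680 genes were higher and 551 lower (11.3% of those tested), and 10 pathway genes and 3 transporters were called. Those were Slc10a1 (-0.89), Slco1a1 (0.99) and Slco1a4 (0.84), while Abcb11 (-0.92) was not. Signs turned for Abcb4 (-0.27), Abcc2 (0.29) and Abcg8 (0.24), and Cyp7a1 was at 3.43.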
